A study of Mus musculus with 6 samples.

Results

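The smooth muscle and myometrial contraction genes are 36 of the 18193 genes measured on these mouse uterus arrays. They were chosen by exact gene symbol as the filaments, filament anchors, transcription factors, phosphatase subunits, channels, contraction signals and membrane attachments of uterine smooth muscle, and all 36 were found. The myometrium is the smooth muscle wall of the uterus. When calcium enters a smooth muscle cell, myosin light chain kinase phosphorylates the regulatory light chain of myosin, myosin pulls on actin, and myosin phosphatase reverses the step. Many genes of this apparatus carry a CArG box, the DNA motif bound by serum response factor, which works there with its partner myocardin, and gap junctions of connexin 43 couple the cells before labor.

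The measurements were made on 6 Affymetrix arrays of whole uterus RNA, 3 from control and 3 from mutant mice, on which a probe set is a group of short probes that reads 1 transcript. The mice were 4 weeks old. The mutant genotype is Pgr cre/+ Ctnnb1f(ex3)/+: Cre is made from the progesterone receptor gene, Pgr, and removes exon 3 of the β-catenin gene in the cells that express Pgr, which leaves a β-catenin that escapes degradation. The labels call the control mice wild type, whereas the methods give Pgr cre/+ and Ctnnb1 f(ex3)/+ controls, so a control may carry either allele alone. The recombination depends on Pgr and is not limited to muscle, and whole uteri were used. According to the methods the RNA of 3 mice of a genotype was pooled, which leaves unclear whether each array read a different animal, and the p-values therefore describe array-to-array spread that can be technical in origin. In whole uterus, fewer cells of a type and less RNA per cell cannot be told apart.

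The deposited intensities had medians of 7.23 to 7.42 per array, and log2 intensities correlated at 0.992 to 0.996 between control arrays, at 0.994 between mutant arrays and at 0.981 to 0.990 between the groups. An intensity of 16, a log2 value of 4, is taken here as the mark of a dim probe set, and 62.3% to 62.6% of the probe sets on each array were dimmer. The labels held for known β-catenin targets, since 8 of 9 were higher in the mutant with a median log2 fold change of 2.61, led by Notum at 5.88. Control 2 stood apart in cell cycle genes, with a mean log2 intensity of 3.92 over 15 of them against 5.98 to 6.70 on the other arrays. The smooth muscle markers Acta2, Actg2, Myh11, Cnn1, Des and Myocd were above 16 on all 6 arrays. Of the 36 contraction genes, 4 lay below 16 on every array (Ldb3, Cacna1h, Sgca and Itga7), and Oxtr did so on 5 arrays.

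Most of the contraction genes did not pass the test for a difference between the genotypes. Synm, Gja1, Csrp1 and Ldb3 rose in the mutant and Ppp1r14a, Dmd and Pdlim3 fell, while 29 of 36 were not called (limma, Benjamini-Hochberg adjusted p under 0.05 over all genes). The 4 that rose are 11.1% of the contraction genes, where 5.61% of all genes rose, and the 3 that fell are 8.33%, where 6.36% of all genes fell. Together 19.4% were called, against 12.0% of all genes, and with 7 calls each gene weighs heavily in that share. Their median log2 fold change was -0.03, and that of all 18193 genes was -0.01. In 9 of 36 all mutant arrays lay above all control arrays, and in another 9 all lay below, 25% each way, where all genes had 14.9% above and 17.4% below. Without control 1 the counts were 2 higher and 0 lower. They were 2 and 1 without control 2 and also without control 3, and 3 and 0 without mutant 2 and also without mutant 3. Without mutant 1 they were 3 and 4. Over all genes these fits called 2.64% to 5.34% higher and 2.04% to 6.26% lower, fewest without control 1 and most without mutant 1. Synm and Gja1 were called in all 6 of these fits, Csrp1 only without mutant 1 or mutant 3, Pdlim3 and Ppp1r14a only without mutant 1, Dmd only without control 3, and Ldb3 in none.

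**Figure D1:**
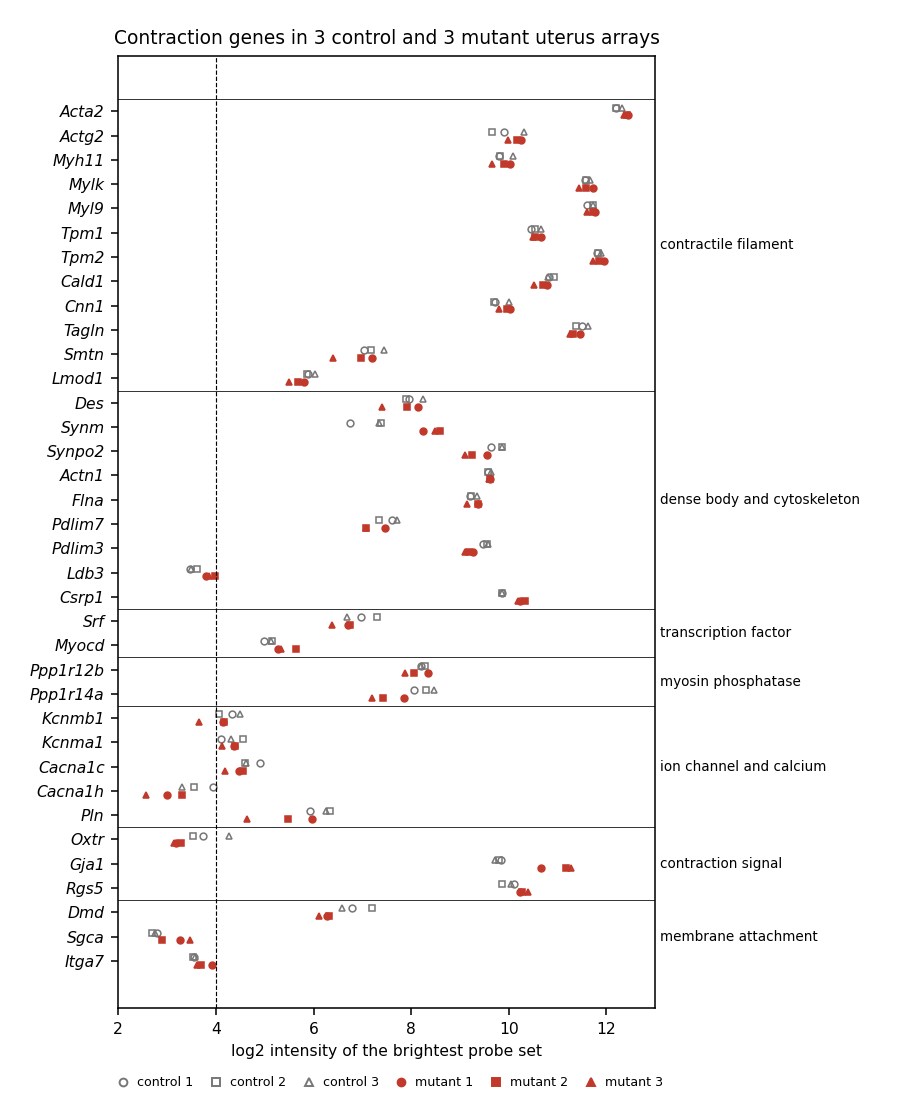
Log2 intensity of the brightest probe set of each of the 36 contraction genes on the 3 control arrays and the 3 mutant arrays, 1 row per gene and 1 marker per array, grouped by role; the dashed line marks an intensity of 16. In most rows the control and mutant markers overlap or lie close together, and Synm and Gja1 show the widest gaps.

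None of the 12 contractile filament genes was called by limma or by the methods' t-test, 1 of them (Lmod1) had an unadjusted limma p under 0.05, and their log2 fold changes ran only from -0.36 to 0.18, with a median of -0.01. Acta2, smooth muscle α-actin, had log2 intensities of 12.20, 12.20 and 12.32 in the controls and 12.44, 12.41 and 12.37 in the mutants. All 3 mutant arrays lay above the controls, but the log2 fold change of 0.16 ± 0.08 (limma standard error) did not pass, with an adjusted p of 0.236. Actg2, the γ-actin of visceral smooth muscle, read 9.90, 9.65 and 10.31 in the controls and 10.25, 10.17 and 9.99 in the mutants, which overlapped. Myh11, the smooth muscle myosin heavy chain, read 9.80, 9.82 and 10.09 in the controls and 10.02, 9.90 and 9.65 in the mutants. Its log2 fold change was -0.04 ± 0.13, with a 95% interval of -0.34 to 0.25 and an adjusted p of 0.871.

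The enzymes and regulators of the filaments lay equally close. Mylk, which encodes myosin light chain kinase, differed by -0.02 ± 0.10 on the log2 scale, and its substrate Myl9, the regulatory light chain, by 0.02 with an interval of -0.18 to 0.22. The tropomyosins, which lie along the actin filament, differed by 0.01 ± 0.09 for Tpm1 and by 0.00 ± 0.09 for Tpm2. Cnn1, calponin, differed by 0.11 ± 0.11, and Tagln, the actin-binding protein transgelin, by -0.15 ± 0.10 (adjusted p = 0.382). For 9 of the 12 filament genes the 95% interval lay wholly within 0.5 either side of 0, and for all 12 within 1, so a change of 1 log2 unit lay outside the interval of each. The outermost interval ends of the group were -0.84 and 0.57.

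The mutant arrays lay wholly below the controls for 2 of the 12 filament genes, where this held for 17.4% of all genes. Cald1, caldesmon, an actin-binding inhibitor of myosin, read 10.81, 10.93 and 10.81 in the controls and 10.78, 10.70 and 10.53 in the mutants, a log2 fold change of -0.18 with an adjusted p of 0.275. Of the 5 probe sets of Cald1, 4 went the other way, the brightest of them by 0.08 and 0.11, and none was called. Lmod1, leiomodin, which starts actin filaments in smooth muscle, read 5.88, 5.87 and 6.03 in the controls and 5.80, 5.69 and 5.49 in the mutants, a log2 fold change of -0.27 ± 0.10 with an adjusted p of 0.146. Smtn, smoothelin, an actin-binding protein of contractile smooth muscle, had the widest range over the 6 arrays of the 12, from 7.03 to 7.45 in the controls and from 6.40 to 7.21 in the mutants.

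The filament genes moved together from array to array within each genotype. Mutant 3 had the lowest value of the mutant arrays in 12 of 12 filament genes and in 29 of the 36 contraction genes, where this held for 32.2% of all genes. Mutant 1 was the highest mutant array in 12 of 12, and control 3 the highest control array in 11 of 12. Their mean log2 intensity was 10.19, 10.20 and 10.38 in the controls and 10.34, 10.24 and 10.06 in the mutants. The control and mutant ranges of that mean overlapped, with mutant 3 lowest and control 3 highest of the 6.

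**Figure D2:**
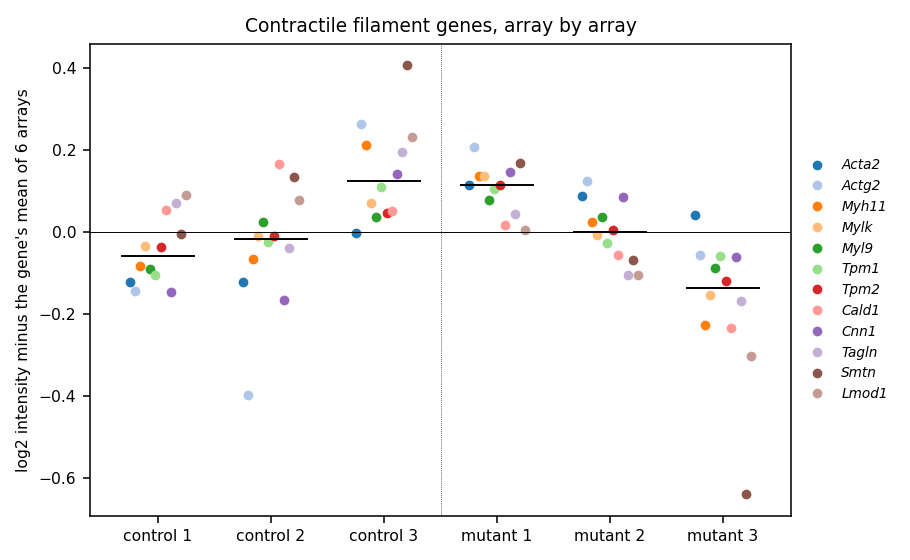
Log2 intensity of the 12 contractile filament genes on each of the 6 arrays, after subtraction of each gene's mean of the 6 arrays; each point is 1 gene, the black bars are medians over the genes, and the dotted line separates the control arrays from the mutant arrays. Of the mutant arrays, mutant 1 has the highest median deviation, 0.11, and mutant 3 the lowest, -0.14, and control 3 has the highest of the controls, 0.13.

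Among the 9 genes that anchor filaments in dense bodies and the cytoskeleton, 3 rose and 1 fell, where 5.61% of all genes rose and 6.36% fell, and the call of 1 of the 3 that rose, Ldb3, held in 3 of 15 other settings. Synm encodes synemin, an intermediate filament protein that pairs with desmin. It read 6.74, 7.39 and 7.33 in the controls and 8.25, 8.59 and 8.48 in the mutants. Every mutant array was above every control array, and the mutant was 2.44-fold higher (log2 fold change 1.28 ± 0.18, adjusted p = 0.00555), with 95% interval from 0.86 to 1.71. A separate probe set of Synm gave 1.20. Des, desmin itself, read 7.96, 7.90 and 8.25 in the controls and 8.14, 7.91 and 7.40 in the mutants, which overlapped (log2 fold change -0.22, adjusted p = 0.545).

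Csrp1, a LIM protein of smooth muscle, read 9.86, 9.87 and 9.86 in the controls and 10.23, 10.32 and 10.19 in the mutants, so the controls barely differed among themselves. It was 1.30-fold higher in the mutant (log2 fold change 0.38 ± 0.08, adjusted p = 0.0196), and its 2 probe sets both rose. Ldb3, a PDZ and LIM protein best known from the Z-disc of striated muscle, was dim, at 3.47, 3.62 and 3.49 in the controls and 3.80, 3.98 and 3.85 in the mutants. The log2 fold change was 0.35 ± 0.09 (adjusted p = 0.0403), and its other 2 probe sets gave 0.13 and -0.22, so the rise rested on 1 dim probe set. Pdlim3, another PDZ and LIM protein that binds α-actinin, read 9.46, 9.56 and 9.57 in the controls and 9.27, 9.19 and 9.11 in the mutants. It fell in all mutant arrays, to a level 1.26-fold lower (log2 fold change -0.34 ± 0.08, adjusted p = 0.0369).

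The remaining 4 anchor genes did not pass. Synpo2, an actin-bundling protein of dense bodies, read 9.63, 9.86 and 9.86 in the controls and 9.55, 9.26 and 9.09 in the mutants, and the log2 fold change of -0.49 ± 0.13 fell just short with an adjusted p of 0.0551. Of its 4 probe sets all were lower in the mutant, and 1 dim set passed at -0.62. Pdlim7, a LIM protein that binds tropomyosin, had -0.35 (adjusted p = 0.16), with probe sets on both sides of 0. Of its 3 probe sets, 1 dim set passed at -0.34 and 1 went the other way at 0.45 without passing. Actn1, α-actinin, and Flna, filamin A, which both crosslink actin, differed by 0.01 and 0.04.

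**Figure D3:**
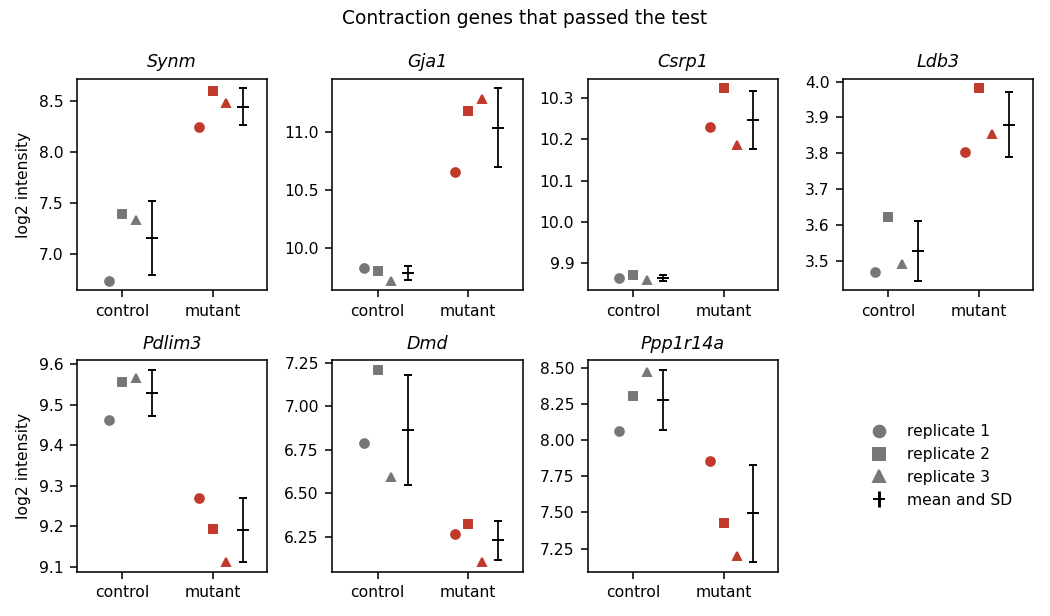
Log2 intensity of the 7 contraction genes that passed the test, 1 panel per gene with its own axis that does not start at 0, 1 marker per array, with the mean and SD of 3 arrays per genotype beside them. In all 7 panels the control and mutant arrays do not overlap, with the means of Synm and Gja1 more than 1 log2 unit apart and those of Csrp1, Ldb3 and Pdlim3 less than 0.5 apart.

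The transcription factors that switch on the apparatus were not called, and lay on opposite sides of 0, with only Myocd at an unadjusted limma p under 0.05. Srf, serum response factor, read 6.97, 7.30 and 6.68 in the controls and 6.70, 6.75 and 6.38 in the mutants (log2 fold change -0.38, adjusted p = 0.214). Myocd, myocardin, its smooth muscle partner, read 4.99, 5.16 and 5.14 in the controls and 5.28, 5.64 and 5.34 in the mutants. All mutant arrays were above the controls, with a log2 fold change of 0.33 and an adjusted p of 0.116.

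The motifs of serum response factor and of TCF/LEF, the DNA-binding partners of β-catenin, were searched in RefSeq promoter windows of GRCm38.p6. Each window ran from 250 bases before to 50 after the start, and 30 contraction genes were listed there with 37 windows. An exact CArG box, which is CC, 6 bases of A or T and GG, stood in 5 of the 37 windows, 13.5%, and in 1.63% of all 32851 windows. They belonged to Myl9, Ldb3, Srf and Dmd. The 2 windows of Ldb3 overlap and hold the same box, and the window of Srf held 2 boxes. The core bound by the TCF/LEF partners of β-catenin, CTTTGA on either strand, stood in 4 windows, 10.8%, of Flna, Rgs5 and Dmd, and in 16% of all windows. These lines show the stretches with a CArG box and 2 of the 4 with a TCF/LEF core, without that of Flna and a second one of Dmd, 5′ to 3′ on the gene's strand with the match in capitals, so that the boxes beside called genes (Ldb3 and Dmd) can be read against those beside genes that were not called.
Myl9, CArG box, chr2:156775288-156775327, plus strand: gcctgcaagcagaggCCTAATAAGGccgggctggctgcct
Srf, CArG boxes, chr17:46556200-46556259, minus strand: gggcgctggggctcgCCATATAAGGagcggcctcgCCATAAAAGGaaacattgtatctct
Ldb3, CArG box, chr14:34588692-34588731, minus strand: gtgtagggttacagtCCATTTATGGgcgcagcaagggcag
Dmd, CArG box, chrX:82948757-82948796, plus strand: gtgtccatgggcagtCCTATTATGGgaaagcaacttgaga
Dmd, TCF/LEF core, chrX:82948625-82948660, plus strand: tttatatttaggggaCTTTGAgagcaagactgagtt
Rgs5, TCF/LEF core, chr1:169655466-169655500, plus strand: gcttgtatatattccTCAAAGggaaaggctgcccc
Of the 4 genes with an exact box, Ldb3 rose, Dmd fell and Myl9 and Srf were not called. The call of Ldb3 rested on 1 dim probe set and held in 3 of 15 other settings, and that of Dmd in 9 of 17. Whether genes with a box share a direction therefore cannot be read from these calls. Only 1 of the 9 filament genes listed in the windows, Myl9, had an exact box there. A match is a stretch of letters and was not tested as a binding site, and a window with none says only that these letters are not in it.

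Of the myosin phosphatase genes among the contraction genes, the inhibitor fell and a targeting subunit, Ppp1r12b, was not called. Ppp1r14a encodes CPI-17, which blocks myosin phosphatase when phosphorylated and so favors contraction. It read 8.06, 8.31 and 8.47 in the controls and 7.86, 7.43 and 7.20 in the mutants. All mutant arrays were below all controls, 1.73-fold lower on average (log2 fold change -0.79 ± 0.18, adjusted p = 0.0301). Ppp1r12b, a subunit that directs the phosphatase to myosin, differed by -0.14 ± 0.12 (adjusted p = 0.545).

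All 5 ion channel and calcium genes had log2 fold changes below 0, with a median of -0.31, and none was called, with 2 at an unadjusted limma p under 0.05 and 0 by the methods' t-test. Pln encodes phospholamban, which restrains the calcium pump of the sarcoplasmic reticulum. It read 5.93, 6.35 and 6.26 in the controls and 5.97, 5.47 and 4.63 in the mutants. Its log2 fold change of -0.82 ± 0.31 was the lowest of the 36, but mutant 1 lay above control 1 and the adjusted p was 0.135. Without mutant 1 it was -1.13 with an adjusted p of 0.036, and without mutant 3, the lowest array, it was -0.46 with an adjusted p of 0.203.

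Cacna1c, the L-type channel that admits calcium for contraction, read 4.90, 4.60 and 4.62 in the controls and 4.48, 4.56 and 4.18 in the mutants, all mutants below all controls (log2 fold change -0.30, adjusted p = 0.194). Cacna1h, a T-type calcium channel, was dim throughout, at 3.93, 3.55 and 3.31 in the controls and 2.99, 3.30 and 2.57 in the mutants (log2 fold change -0.64, adjusted p = 0.102). Those arrays also did not overlap, but the other probe set of Cacna1h, also dim, gave 0.12. The pore of the large-conductance potassium channel that relaxes smooth muscle, Kcnma1, differed by -0.02, and its β-subunit Kcnmb1 by -0.31 with an adjusted p of 0.305.

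Gja1, which encodes the gap junction protein connexin 43, had the lowest adjusted p of the 36. It read 9.83, 9.80 and 9.72 in the controls and 10.65, 11.18 and 11.28 in the mutants. The mutant was 2.38-fold higher (log2 fold change 1.25 ± 0.16, 95% interval 0.88 to 1.62, adjusted p = 0.00371), and every mutant array was above every control array. All 6 probe sets of Gja1 were higher in the mutant, by 0.52 to 1.25 on the log2 scale, and 4 of them passed. The probe set used has probes that can match other transcripts, and a Gja1 probe set without that mark gave 1.20. Connexin 43 is also made by endometrial stromal and other cells, and which cells carried the rise cannot be told from whole uterus.

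Oxtr, the oxytocin receptor, which drives labor contractions, lay near the dim end of the arrays. It read 3.74, 3.54 and 4.27 in the controls and 3.18, 3.29 and 3.13 in the mutants, with all mutants below all controls (log2 fold change -0.65 ± 0.18, adjusted p = 0.0557). It did not pass, and only control 3 was above 16. Its second probe set, also dim, gave 0.14. Rgs5, a regulator of G protein signaling made by pericytes and vascular smooth muscle, read 10.11, 9.85 and 10.05 in the controls and 10.23, 10.26 and 10.40 in the mutants. All mutants lay above the controls, with 0.29 ± 0.10 and an adjusted p of 0.101, while 2 dimmer probe sets of Rgs5 passed at 0.99 and 0.52.

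Of the genes that tie the cytoskeleton to the membrane and matrix, Dmd fell. Dmd encodes dystrophin, which joins actin to a membrane complex. It read 6.79, 7.21 and 6.59 in the controls and 6.27, 6.32 and 6.10 in the mutants. The mutant was 1.55-fold lower with no overlap (log2 fold change -0.63 ± 0.16, adjusted p = 0.0399), and 2 of its 4 probe sets passed. Sgca, α-sarcoglycan of the same complex, and Itga7, a laminin receptor of muscle, were dim. Sgca differed by 0.47 (adjusted p = 0.0776) and Itga7 by 0.19 (adjusted p = 0.286), and in both all mutant arrays lay above all controls.

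**Figure D4:**
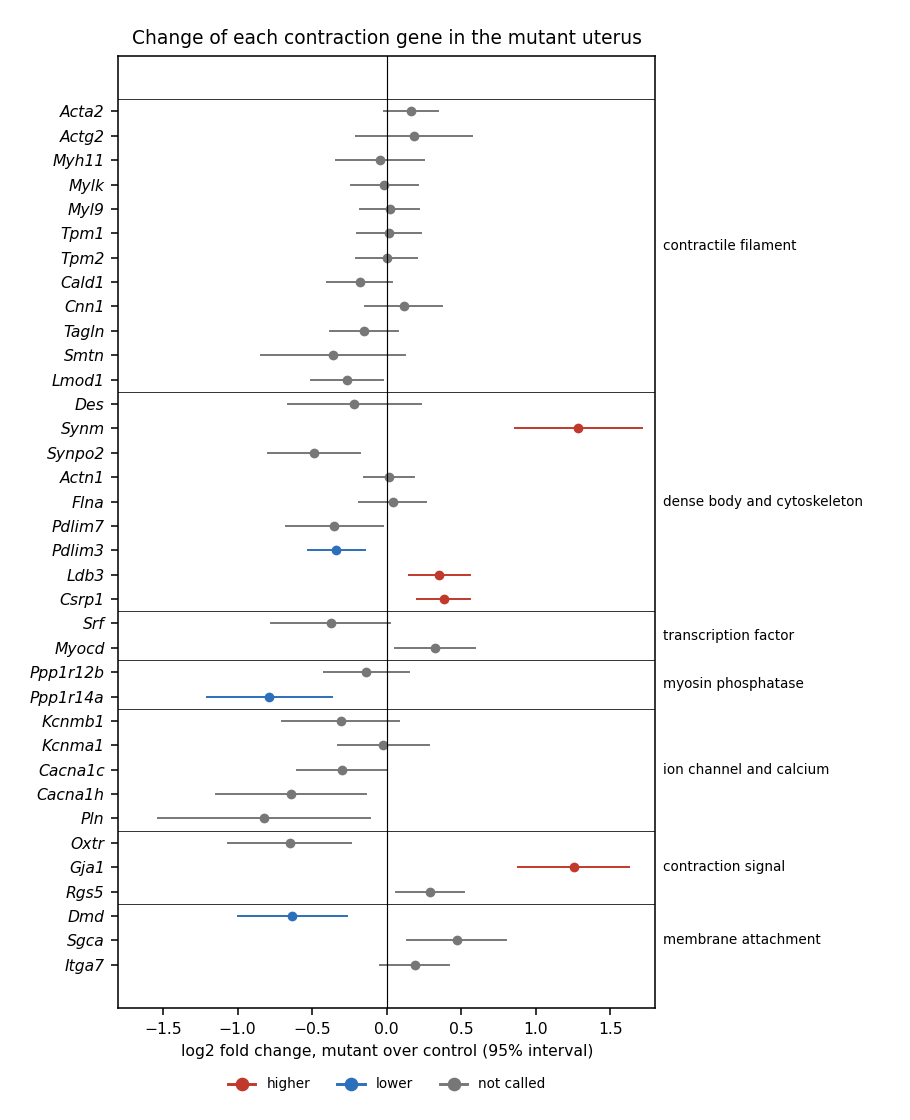
Log2 fold change of mutant over control for each of the 36 contraction genes with its 95% interval from limma, in the same order by role as the levels, with called genes marked by color. The intervals of 11 of the 12 filament genes span 0 and that of Lmod1 lies just below it, those of Synm and Gja1 lie wholly above 0.5, and the 5 channel and calcium genes all have estimates below 0.

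The wider contraction pathway had calls in both directions, and its counts stand beside 5.61% of all genes that rose and 6.36% that fell. Among 34 other actin and myosin genes, 4 rose and 3 fell, with a median of -0.07: Synpo, an actin-associated protein, rose by 1.62 and Csrp2, a relative of Csrp1, by 1.28, and Smtnl2, related to smoothelin, fell by 0.59 and Tns1, which links actin to adhesions, by 0.48. Among 20 cofactors of Srf and other muscle transcription factors 4 rose and 3 fell. Klf4, which represses smooth muscle genes, fell by 1.19, while Hand2, a factor of the endometrial stroma, rose by 1.49, Prrx1, a mesenchymal homeobox factor, by 0.55 and Mef2a by 0.53.

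The channels and receptors outside the contraction genes also went both ways, against the same 5.61% and 6.36% of all genes. Of 33 other channel and calcium handling genes 4 rose and 4 fell. Nalcn, a sodium leak channel, was 2.80 higher and Kcnmb2, a β-subunit of the large-conductance potassium channel, 2.51 higher, and the calcium release channel Itpr2 was lower by -1.08 and the cation channel Trpc4 by -0.98. Of 23 receptors that tighten or relax the uterus 2 rose and 5 fell. Rxfp1, the relaxin receptor, fell by 1.24, the prostaglandin E receptors Ptger4 and Ptger2 by 1.19 and 1.10, and Ednrb, an endothelin receptor, rose by 1.15. Of 29 dystrophin complex, caveolae and attachment genes 1 rose and 4 fell: Sntb1, a syntrophin that binds dystrophin, rose by 1.28, and Itgb3, Sspn and Cavin1 fell by 1.07, 0.70 and 0.59. The medians of these 5 lists lay between -0.13 and -0.05.

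**Figure D5:**
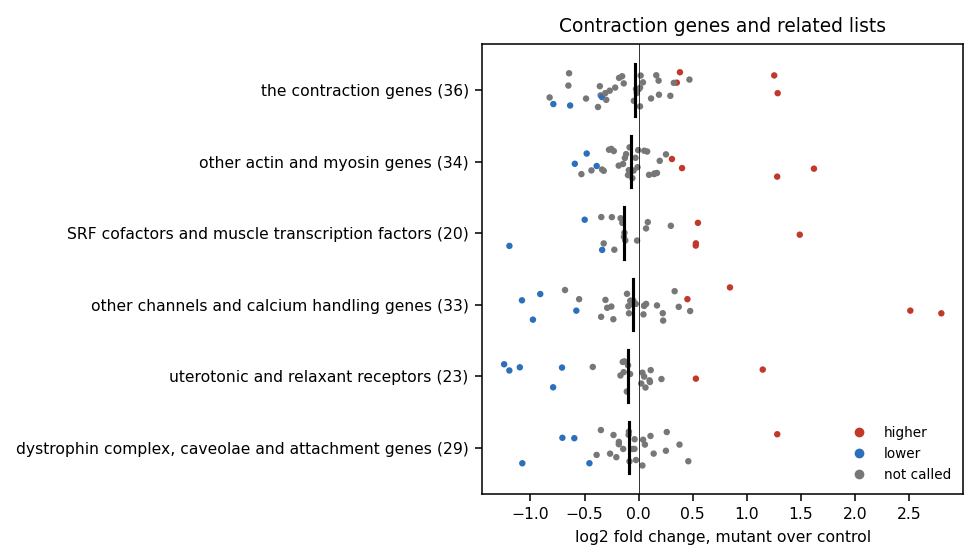
Log2 fold change of mutant over control for the contraction genes and 5 lists of related genes, 1 point per gene with the number measured in parentheses and a black bar at each list's median, with genes that rose and fell marked by color. Every list has a median a little below 0 and called genes on both sides.

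Markers of other cells in the uterus were read on the same arrays, and their part in these results was not tested. The counts of each list stand beside 5.61% of all genes that rose and 6.36% that fell. The 11 pericyte markers had a median of -0.17, with Cox4i2 higher by 0.36 and Vtn and Anpep lower by -1.01 and -0.86, and their mean log2 intensity was 6.03 to 6.20 in the controls and 5.88 to 6.07 in the mutants, beside Rgs5. Of 20 skeletal and heart muscle markers, 13 were below 16 on every array. Casq1 (0.99) and Tnnt1 (0.75) were higher and Myh2 (-0.48), dim on every array, was lower. Beside the rise of Gja1, the 14 endometrial stromal markers had 0 higher and 2 lower, Pgr by -0.97 and Islr by -0.42. Their mean was 10.22 to 10.29 in the controls and 10.01 to 10.15 in the mutants. Cre is made from the Pgr gene in the mutant, and an effect of that allele on the Pgr value was not tested. Hand2, a factor of the endometrial stroma held in another list, rose.

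The other lists stand beside the same 5.61% and 6.36% of all genes. They held 12 epithelial markers, of which 1 rose (Foxa2, 1.54) and 3 fell (Wnt7a, -1.71, Elf3, -0.85, and Krt18, -0.80). The epithelial means were 8.10 to 8.29 in the controls and 7.69 to 8.15 in the mutants. Of 12 endothelial markers only Tek fell, by 0.85. None of 8 mesothelial markers was called by limma, with 2 at an unadjusted p under 0.05, Wt1 (-0.30) and Bnc1 (-0.54). The 10 adipocyte markers had the median farthest from 0 of these marker lists, a log2 fold change of 1.31. All 10 had an unadjusted limma p under 0.05, a threshold for which the share of all genes is not given. Of these, 3 were called (Retn, 2.35, Cidec, 1.82, and Lipe, 0.74). In 9 all mutant arrays lay above all controls, where this held for 14.9% of all genes. The adipocyte mean was 4.51 to 6.08 in the controls and 6.60 to 7.25 in the mutants. Of 11 immune cell markers 1 rose and 1 fell. Limma called none of 15 cell cycle genes, with 0 at an unadjusted p under 0.05. All 15 had log2 fold changes above 0, with a median of 0.81, and control 2 lay far below the other arrays in them, with a mean of 3.92. Of 9 reference genes limma called none, with 2 at an unadjusted p under 0.05, Hprt (0.31) and Actb (0.25).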

How the data were processed

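The values the authors deposited are linear intensities, 1 for each probe set on each array. The submitters' processing notes name RMA, which corrects background, normalizes arrays by quantiles and summarizes probes, without a version. The fit had been planned for log2 values, so log2 was taken of the deposited intensities after a floor of 1, which changed 0 values. Probe sets were named from GEO's platform annotation. Of 45037, 34945 had 1 symbol, 932 several and 9160 none, and only the first were used. For each of 18193 genes the probe set brightest on average was used, and all 36 contraction symbols were current in RefSeq GRCm38.p6.

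The genotypes were compared by a two-sided test in limma 3.58.1 under R 4.3.3, using lmFit and eBayes without covariates, with Benjamini-Hochberg adjustment over all genes. Errors beside fold changes are limma's standard errors, and the number of arrays limits the precision. Counts of genes at an unadjusted p under 0.05 are given without the share of all genes under that threshold. Steps were tested on simulated data. The contraction genes, the related lists and the promoter motifs were chosen with earlier results of these data known. Every contraction gene is named, and of each other list at most 4 called members, chosen by size of change. At most 2.11% of probe sets had the same value on a pair of arrays. Intensities of different probe sets were not compared as levels. The alternatives were other array scalings and gene representations, filters and floors, other variance models, the methods' t-test, the replicate number as a block, and leaving out each array. No batch is given in the labels, and listed genes that were not matched were not analysed here. The result of 1 related list is not reported here.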

Additional observations from a re-analysis of the deposited data

How the results depend on the processing

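The counts of 4 contraction genes higher and 3 lower rested on 3 arrays a group and moved with the processing. Centring the arrays on their medians gave 5 lower, where 7.28% of all genes were lower, and array weights gave 5 lower, where 8.61% were. The methods name Student's t-test for 2 groups in general and refer to earlier work for the arrays. With Benjamini-Hochberg adjustment over all genes, that t-test gave 0 contraction genes higher and 0 lower. In all it called 105 genes higher and 39 lower, against 1021 and 1157 with limma. At an unadjusted p under 0.05 there were 11 contraction genes with the t-test and 16 with limma. With intensities under 16 set to 16, 1 gene (Csrp1) was higher and 0 were lower, with 11 at an unadjusted limma p under 0.05. Calls over all genes dropped as well with this floor, to 1.56% higher and 1.34% lower. Leaving out the genes at the floor on every array, which kept 10789 genes, gave 3 higher and 4 lower, where 8.55% and 10.8% of the kept genes were. That setting was chosen after seeing the data and the result of the floor. Leaving out each array in turn gave 2 to 3 higher and 0 to 4 lower. Of all genes, 2.64% to 5.34% were higher and 2.04% to 6.26% lower in these fits. The calls of Synm and Gja1 held in 15 of 17 settings, all but the t-test and the floor of 16. Those of Csrp1 held in 12, of Dmd, Pdlim3 and Ppp1r14a in 9, and of Ldb3 in 3 of 15. Of the other genes, Synpo2 passed in 6 settings, Oxtr in 3, Cacna1h and Sgca in 2 and Cacna1c, Pln and Rgs5 in 1. No contraction gene was called in opposite directions, and no filament gene was called in any setting. The median of the contraction genes moved by less than the spread between arrays of 0.0996 in every setting run. The deviations of samples with the same replicate number correlated at 0.01, 0.21 and 0.16. Pairs with different numbers were not compared, so whether samples with the same number shared more than that cannot be told. With a replicate block 4 were higher and 2 lower, with Cacna1h called and Pdlim3 and Ppp1r14a not. That block called 5.31% of all genes higher and 5.96% lower. Dim genes (Ldb3, Cacna1h, Sgca, Itga7 and Oxtr) are limited by signal over background.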
